A study of Mus musculus with 21 samples.

Results

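The comparison described here is between livers that share a class, low STAT5 activity, and differ in the label prefix of the mouse. Among the individual STAT5_Low lists, the 5 livers with the prefix G74A (M5, M6, M7, M8 and M9) were set against the 3 with the prefix G99 (M7, M9 and M11), which is 8 of the 21 livers of the series. All 8 came from untreated, pituitary-intact male CD-1 (ICR) mice aged 8 to 10 weeks, an outbred stock, kept on a 12-hour light cycle, and each list comes from a single mouse. A mobility shift assay on an extract of the same liver had put each of them in the low-STAT5 class at the time of killing. The labels do not say what a prefix stands for, and the word collection is used for it here without further meaning. Livers of other groups were used only for comparison: 2 STAT5_High livers of G74A, 3 STAT5_High livers of G99 and 2 STAT5_Low livers of G92. The 3 livers whose titles call them outliers were not analysed here.

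DNase I cuts DNA where nucleosomes have been displaced, so that pile-ups of released fragments mark open promoters and enhancers. In male liver, STAT5 is switched on and off with each pulse of growth hormone, and part of the open chromatin follows it. Livers taken between pulses hold little active STAT5. Comparing such livers between collections measures what varies at a fixed STAT5 class. In whole liver, fewer cells of a type and less opening per cell cannot be told apart.

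The 8 lists held between 33050 peaks (G74A_M5) and 41978 peaks (G99_M7), from 12890880 to 23395665 tags per list header. Merged wherever they shared at least 1 bp, they gave 57871 regions, of which 22731 (39.3%) were found in every one of the 8 lists and 12326 (21.3%) in just 1. No pair of lists was near-identical: base by base, the overlap divided by the union ran from 0.577 for G74A_M8 with G99_M11 to 0.668 for G99_M7 with G99_M9. Promoter peaks of 10 of 11 hepatocyte genes were present in every list, Serpina1a having none in any. None of 10 macrophage genes had a promoter peak in any of the 8 lists, and of 10 lymphocyte and 8 neutrophil genes at most 1 did in any list. Of 12 endothelial genes, 2 to 6 had a promoter peak in G74A livers and 4 to 5 in G99 livers, of 11 stellate cell genes 2 to 3 and 2, of 8 cholangiocyte genes 3 to 4 and 4, and of 9 erythroid genes 1 and 2.

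Lists of a collection resembled each other more than lists of different collections. The mean overlap was 0.632 within a collection and 0.608 across, a difference of 0.0246 with an exact one-sided permutation p of 0.0179, the smallest that the 56 assignments allow. Within G74A it was 0.624 and within G99 0.661. Without G74A_M6 or G74A_M9 the permutation p was 0.0571, and without M5, M7 or M8 of G74A it was 0.0286. Without G99_M9 or G99_M11 the permutation p was 0.0952, and without G99_M7 it was 0.0476. Leaving out a liver lowers the number of assignments, which raises the smallest p that can be reached. Of the 2 G92 livers, G92_M4 overlapped G74A livers by a mean of 0.557 and G99 livers by 0.555. G92_M6 overlapped G74A livers by 0.586 (0.556 to 0.615) and G99 livers by 0.629 (0.617 to 0.644), so that each G99 liver was nearer to it than any G74A liver.

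Summary measures of the lists did not separate the collections past the threshold. The header tags were 18593946 ± 4074849 in G74A livers and 18916135 ± 549198 in G99 livers (SD, n = 5 and 3, exact permutation p = 0.929). The peak number was 37278 ± 2793 in G74A livers and 39331 ± 2917 in G99 livers (exact permutation p = 0.393). Peaks covered 19.2 ± 1.71 Mb in G74A livers and 21.3 ± 1.61 Mb in G99 livers (exact permutation p = 0.179), and their median width was 474.4 ± 19.3 bp and 497.3 ± 5.69 bp (exact permutation p = 0.0893). Over the 22731 shared regions the median pileup was 2.34 ± 0.267 per 1000000 header tags in G74A livers and 2.64 ± 0.340 in G99 livers (exact permutation p = 0.268). The share of pileup at promoters was 47.7 ± 0.704% in G74A livers and 47.2 ± 1.62% in G99 livers (exact permutation p = 0.554). Adjusted over these 6 measures, no p fell below 0.536.

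Region by region, the shared regions were compared on their pileup, the height of the fragment stack at the summit as the authors' peak caller gave it, divided by the header tags and multiplied by 1000000 (normalised pileup below). By limma with Benjamini-Hochberg adjustment at 0.05, 308 of the 22731 regions (1.35%) were higher in G74A livers and 1826 (8.03%) were higher in G99 livers. The median difference of all regions was -0.13 (log2, G74A minus G99), and setting the median of each liver to zero changed the split to 1642 and 1619. Results below are for regions called in the same direction on both scales, which were 308 higher in G74A (1.35%) and 1531 higher in G99 (6.74%). Their median fold, with the medians of the livers aligned, was 2.01 for the G74A set and 1.66 for the G99 set, against 1.21 in either direction for all tested regions. Centring shifts every difference towards G74A by the same amount. The rule of both scales therefore asks a larger centred difference of regions higher in G74A than of regions higher in G99. The counts and folds of these sets are not on equal terms, and comparisons between the sets below carry the same limit. Single livers carried part of the counts. Before median centring, the count higher in G74A was 187 without G74A_M5, 173 without G74A_M9, 66 without G99_M9 and 121 without G99_M11. The count higher in G99 was 1053 without G74A_M9, 608 without G99_M7 and 855 without G99_M9.

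The sets differed in base composition. In the 200 bases around the summit, the median G+C was 63.5% in regions higher in G74A and 48.5% in regions higher in G99, against 52.5% in all tested regions. In the lowest of 10 bins of G+C (20.5 to 40.0%), 1 of 2404 regions was higher in G74A and 384 (15.97%) were higher in G99. Among those with 65.5 to 70.5% G+C, 79 of 2301 (3.43%) were higher in G74A and 136 (5.91%) were higher in G99. Each liver followed its collection at the poor end: in the lowest bin the 5 G74A livers lay below the mean of the 8 and the 3 G99 livers above it. The fit was therefore repeated after each liver was centred within 20 bins of G+C, an alternative added after the data were seen. It called 1039 regions higher in G74A and 1557 higher in G99, and 306 of the 308 and 1189 of the 1531 were among them. The part that G+C plays in the remaining calls was not tested.

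**Figure D1:**
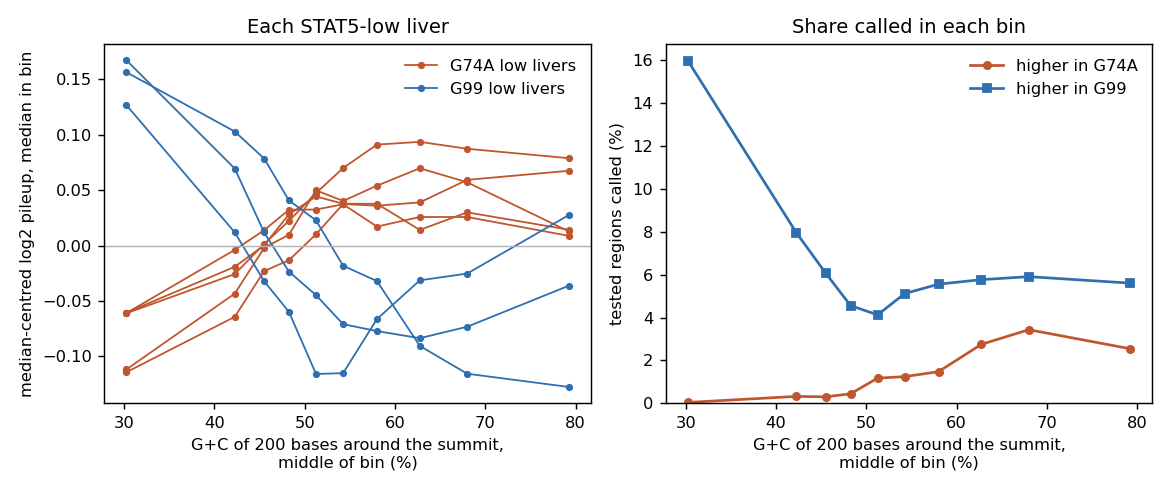
Left, median-centred log2 pileup of each STAT5-low liver against the G+C content of the region, as the median in each of 10 bins (lines, 1 per liver: 5 of G74A and 3 of G99). Right, the percentage of tested regions in each bin called higher in G74A or higher in G99; the poorest bin holds 15.97% of its regions towards G99 and 0.0416% towards G74A.

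The sequences below are the 200 bases around the mean summit of the first 3 named regions of each direction, from the plus strand of the mm9 assembly, with capitals marking GC boxes (GGGCGG on either strand), the recognition sequence of the SP and KLF family of transcription factors. The first 3 are higher in G74A: Tspan17 at chr13:54890547-54890746, the intergenic region nearest Fam160b1 at chr19:57478770-57478969, and Prex1 at chr2:166539284-166539483. The last 3 are higher in G99: Cwc22 at chr2:77784326-77784525, Kdm5d at chrY:234108-234307, and the intergenic region nearest Olig3 at chr10:19183974-19184173.
Tspan17: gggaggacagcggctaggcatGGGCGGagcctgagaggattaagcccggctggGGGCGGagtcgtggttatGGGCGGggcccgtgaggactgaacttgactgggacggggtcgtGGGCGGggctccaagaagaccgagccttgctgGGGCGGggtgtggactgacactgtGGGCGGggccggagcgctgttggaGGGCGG
Fam160b1: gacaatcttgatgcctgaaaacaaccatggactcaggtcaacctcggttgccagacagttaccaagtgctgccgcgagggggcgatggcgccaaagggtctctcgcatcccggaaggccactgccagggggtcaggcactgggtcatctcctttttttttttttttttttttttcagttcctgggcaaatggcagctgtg
Prex1: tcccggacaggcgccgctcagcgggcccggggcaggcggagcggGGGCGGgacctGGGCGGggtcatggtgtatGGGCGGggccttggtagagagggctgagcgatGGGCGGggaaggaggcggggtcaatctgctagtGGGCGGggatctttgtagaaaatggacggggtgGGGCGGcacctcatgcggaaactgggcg
Cwc22: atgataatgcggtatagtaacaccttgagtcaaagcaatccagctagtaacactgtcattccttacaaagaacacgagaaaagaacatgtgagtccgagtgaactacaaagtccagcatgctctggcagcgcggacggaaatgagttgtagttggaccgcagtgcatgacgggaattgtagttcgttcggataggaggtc
Kdm5d: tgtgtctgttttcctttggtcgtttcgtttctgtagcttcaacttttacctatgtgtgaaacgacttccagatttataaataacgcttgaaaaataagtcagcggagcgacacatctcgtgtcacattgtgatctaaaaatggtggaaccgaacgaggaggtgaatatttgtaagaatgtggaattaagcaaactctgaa
Olig3: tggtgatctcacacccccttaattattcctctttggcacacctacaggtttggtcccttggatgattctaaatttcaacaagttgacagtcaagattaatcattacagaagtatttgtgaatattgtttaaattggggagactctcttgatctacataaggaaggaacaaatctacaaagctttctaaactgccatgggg
Tspan17 and Prex1 hold 7 and 6 GC boxes in 200 bases, and the other 4 windows hold 0.

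GC boxes were counted over both sets. At least 1 was found in 56.2% of regions higher in G74A and 20.6% of regions higher in G99, against 26.6% of all tested regions of the same length. At least 3 were found in 96 of 308 (31.2%) regions higher in G74A and in 24 of 1531 (1.57%) higher in G99, against 5.72% of all. Among promoters alone, 144 of 161 (89.4%) in the G74A set and 283 of 744 (38.0%) in the G99 set held a GC box, against 56.9% of all tested promoters. Outside promoters the shares were 19.7% in the G74A set and 4.19% in the G99 set, against 7.43% of all. Among regions with 60 to 70% G+C, 79.3% of 140 regions higher in G74A and 42.8% of 269 higher in G99 held one, against 60.8% of 4606 tested. Above 70% G+C the shares were closer, with 91.2% of 57 regions higher in G74A and 77.1% of 131 higher in G99, against 83.5% of 2296 tested. Motif matches here are letters in a window and not binding sites.

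Motifs of other factors were counted in the same way. TGTTTAC, the forkhead site bound by FOXA factors, was in 0.974% of regions higher in G74A and 5.16% of regions higher in G99, against 5.29% of all tested. The interferon element was in 0.649% of regions higher in G74A and 2.68% of regions higher in G99, against 2.37% of all. TTCNNNGAA, the STAT5 site, was in 3.25% of regions higher in G74A and 7.51% of regions higher in G99, against 5.54% of all. AGGTCA, the core of nuclear receptor sites, was in 22.1% and 12.7%, against 19.95% of all. ACANNNTGT, a reduced glucocorticoid element, was in 4.55% and 5.62% against 5.11%, and TTGCNNAA, the C/EBP site, in 8.77% and 12.1% against 13.9%. The clock E-box CACGTG was in 6.82% of regions higher in G74A and 4.44% of regions higher in G99, against 6.80% of all. The AP-1 site TGANTCA was in 4.22% and 3.92% against 6.05%, and the ETS site CCGGAAG in 6.82% and 9.73% against 7.24%. Both strands were searched. The sets differ in G+C, as given above, and unlike the GC boxes these shares were not split by G+C. The part that base composition plays in them was not tested.

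Both sets held more promoters than the tested regions as a whole. Regions with their summit within 1 kb of a protein-coding start were 161 of 308 (52.3%) in the G74A set and 744 of 1531 (48.6%) in the G99 set, against 38.8% of all tested regions. Introns made up 20.8% and 19.99% against 28.2%, and intergenic regions 25.0% and 30.1% against 31.1%. Promoters with starts on both strands within 1 kb were 15 of 161 (9.32%) in the G74A set and 146 of 744 (19.6%) in the G99 set, against 11.2% of all tested promoters. Among the regions higher in G99 that were also called after centring by G+C, promoters were 60.6% of 1189. Strength differed too: the median of the mean normalised pileup was 2.14 in the G74A set and 3.23 in the G99 set, against 2.40 for all tested.

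The 12 named regions higher in G74A, chosen as those with the largest median-centred difference among the calls, were mainly G+C-rich promoters. The largest was the promoter of Tspan17, a tetraspanin membrane protein (chr13:54890199-54891004). It had a normalised pileup of 2.79, 3.62, 2.12, 2.74 and 4.41 in G74A livers (M5 to M9 in order), against 1.36, 0.984 and 0.827 in G99 livers (M7, M9 and M11), with no overlap (log2 difference 1.55 ± 0.25 SE, limma adjusted p = 0.00038). The promoter of Prex1, an exchange factor for Rac (chr2:166538943-166540045), had a normalised pileup of 2.79, 2.72, 3.15, 3.33 and 3.85 in G74A livers, against 1.67, 0.929 and 1.24 in G99 livers (log2 difference 1.34 ± 0.24 SE, limma adjusted p = 0.000728). The promoter of Spsb1, a SOCS-box adaptor of ubiquitin ligases (chr4:149328910-149329713), had a normalised pileup of 4.03, 4.19, 4.86, 4.19 and 5.38 in G74A livers, against 2.35, 1.48 and 1.65 in G99 livers (log2 difference 1.33 ± 0.22 SE, limma adjusted p = 0.000402). In these 3 promoters every G74A liver lay above every G99 liver. The promoters of Prx, which encodes periaxin of the myelin sheath, Klhl36, a BTB-Kelch protein, and Dok4, a docking protein below receptor tyrosine kinases, and an intron of Rai1, a transcriptional regulator, were also higher in G74A without overlap, with log2 differences between 1.23 and 1.31. The region 14601 bp from Fam160b1 behaved likewise, with a normalised pileup of 3.03, 3.0, 3.32, 2.44 and 2.23 in G74A livers and 0.732, 1.09 and 1.60 in G99 livers (log2 difference 1.35 ± 0.25 SE, limma adjusted p = 0.00111).

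The other 4 named regions rested on fewer livers or on the measure. The region 527 bp from Copz2, a subunit of the COPI coat, had a normalised pileup of 2.87, 2.04, 2.00, 1.97 and 1.44 in G74A livers, against 0.680, 0.547 and 1.45 in G99 livers. The lowest G74A liver and the highest G99 liver coincided there. The intergenic region 28694 bp from Slc22a15, a solute transporter, had a normalised pileup of 6.59, 4.53, 11.5, 4.79 and 8.12 in G74A livers, against 1.67, 8.09 and 1.60 in G99 livers. G99_M9 therefore stood with the G74A livers, and without G99_M7 or G99_M11 the call was lost (limma adjusted p = 0.180 and 0.101). The region 21091 bp from Dhrs7, a short-chain dehydrogenase, had a normalised pileup of 2.64, 3.28, 3.78, 2.31 and 4.18 in G74A livers, against 1.41, 0.875 and 1.97 in G99 livers, and its limma adjusted p was 0.00278, or 0.0523 without G99_M9. Measured by the authors' fold enrichment in place of pileup, Copz2, Slc22a15, Dhrs7 and Mt1 were not called (limma adjusted p = 0.0574, 0.0530, 0.126 and 0.103).

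Mt1 encodes a metallothionein, a metal-binding protein induced by metals, glucocorticoids and inflammation. Its promoter (chr8:96702654-96703494) had a normalised pileup of 1.78, 6.57, 3.66, 7.18 and 3.67 in G74A livers, against 1.73, 1.26 and 2.22 in G99 livers. The collections overlapped through G74A_M5, and M6 and M8 were highest (log2 difference 1.27 ± 0.30 SE, limma adjusted p = 0.00651, or 0.0604 without G99_M9). The region 706 bp from the neighbouring Mt2 had a normalised pileup of 1.86, 3.85, 1.66, 3.68 and 2.13 in G74A livers, against 1.20, 1.20 and 1.40 in G99 livers. The promoter of Lcn2, which encodes the acute-phase protein lipocalin 2 (chr2:32243164-32243951), had a normalised pileup of 1.16, 4.25, 1.03, 3.76 and 0.975 in G74A livers, against 0.889, 0.765 and 0.672 in G99 livers (log2 difference 1.22 ± 0.35 SE, limma adjusted p = 0.0225, or 0.0734 after centring by G+C). All 3 regions were highest in G74A_M6 and G74A_M8, so that the spread within G74A was larger than the gap between its lowest livers and G99. Among the STAT5_High livers, G74A_M4 was high at all 3, with a normalised pileup of 7.48, 4.41 and 6.76. The other STAT5_High liver of G74A, G74A_M3, was not, with 1.81 at Mt1, no peak at the Mt2 region and 1.01 at Lcn2.

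**Figure D2:**
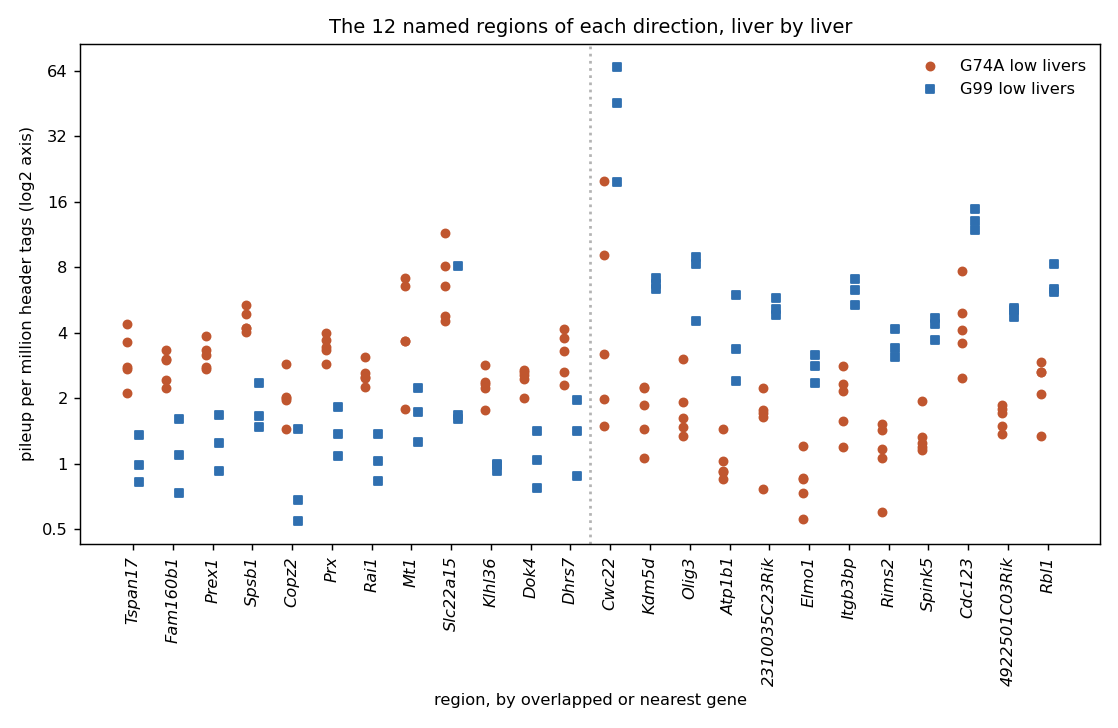
Normalised pileup (log2 axis) at the 12 named regions higher in G74A (left of the dotted line) and the 12 higher in G99 (right), with 1 point per liver, 5 for G74A and 3 for G99. In 9 of the 12 on the left and 11 of the 12 on the right the collections do not overlap; Cwc22 spans 1.50 to 67.0.

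The 12 named regions higher in G99 were 6 promoters, 3 introns and 3 intergenic regions, with a median G+C of 43.2% against 66.5% for the named regions higher in G74A. The largest difference of all lay at the promoter of Cwc22, a splicing factor (chr2:77783678-77784845). Its normalised pileup was 9.08, 1.98, 3.20, 1.50 and 19.9 in G74A livers, against 19.7, 67.0 and 45.8 in G99 livers (log2 difference -3.15 ± 0.46 SE, limma adjusted p = 0.000106). G74A_M9 reached the level of G99_M7, so the collections overlapped, and the spread within G74A was itself wide. The same region had a normalised pileup of 2.90 and 2.23 in STAT5_High livers of G74A, against 67.7, 25.1 and 5.89 in STAT5_High livers of G99. It had 9.13 and 23.3 in the STAT5_Low livers of G92.

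Small peaks along the flanking sequence of Cwc22 were counted in each liver. Within 100 kb on either side there were 0, 0, 0, 0 and 14 further peaks in G74A_M5 to M9, against 1, 7 and 3 in G99_M7, M9 and M11. In STAT5_High livers there were 0 and 0 in G74A, against 13, 4 and 0 in G99. In G92 there were 3 in G92_M4, with a promoter pileup of 9.13, and 0 in G92_M6, with 23.3, so that flanking peaks did not always go with a tall promoter peak. The 14 of G74A_M9 had a median normalised pileup of 1.11 and the 7 of G99_M9 a median of 1.53. The locus is known to vary in copy number among mice. Copy number was not measured, and its part in these values was not tested.

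**Figure D3:**
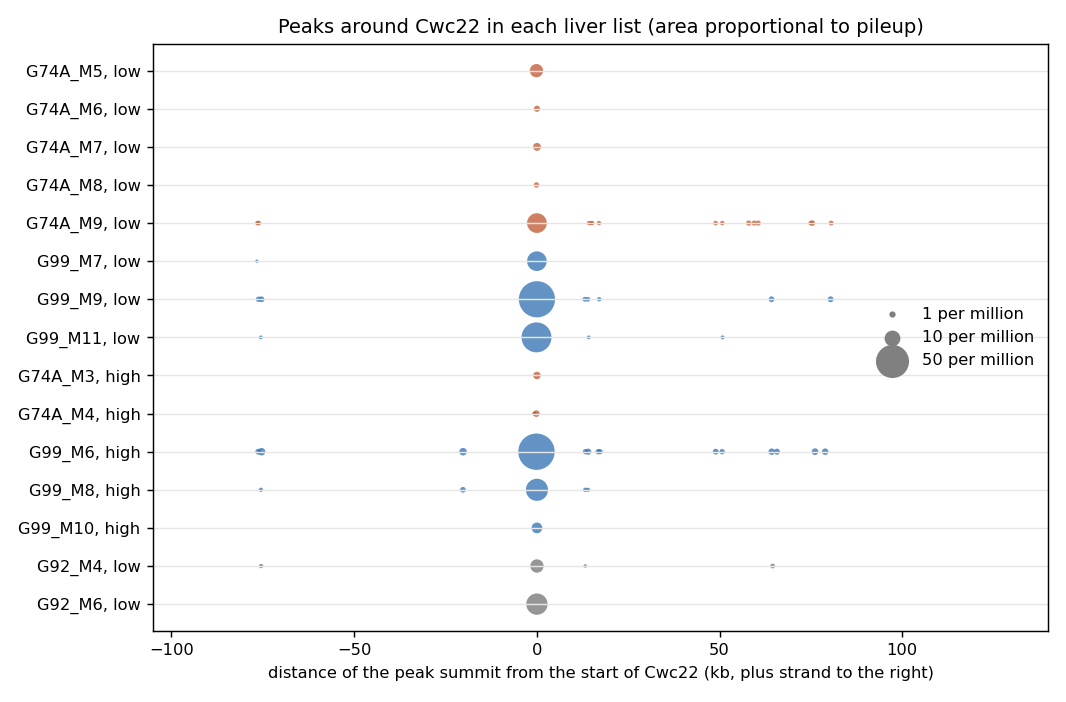
Peaks within 100 kb of the Cwc22 promoter in 15 liver lists, 1 row per liver, by the distance of the summit from the start of the gene in kb (plus strand to the right); the area of a point is proportional to the normalised pileup. G74A_M9 has 14 further peaks, and G99_M6 of the STAT5-high class 13.

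The second largest was the promoter of the Y-linked Kdm5d, a demethylase of histone H3 (chrY:233876-234757), with a normalised pileup of 2.25, 1.87, 2.23, 1.07 and 1.44 in G74A livers, against 7.11, 6.34 and 6.72 in G99 livers (log2 difference -1.98 ± 0.24 SE, limma adjusted p = 1.9e-05). The lowest G99 liver was above the highest G74A liver. The promoter of Eif2s3y, a Y-linked translation factor subunit (chrY:346385-347321), had a normalised pileup of 2.72, 4.64, 4.75, 1.62 and 2.23 in G74A livers, against 9.21, 7.93 and 7.71 in G99 livers (log2 difference -1.49 ± 0.26 SE, limma adjusted p = 0.000643). The promoter of Uty, a Y-linked relative of a histone demethylase, was lower in G74A by a log2 difference of -0.93 ± 0.27 SE (limma adjusted p = 0.0234), with a normalised pileup of 1.47, 1.25, 1.66, 0.769 and 0.928 in G74A livers and 2.93, 2.19 and 1.71 in G99 livers. On the Y chromosome 4 of 32 tested regions (12.5%, beside 6.74% of all tested) were higher in G99 and 0 were higher in G74A. The fourth promoter tested there, that of Ddx3y, a Y-linked RNA helicase, had a log2 difference of -0.82 ± 0.26 SE (limma adjusted p = 0.0383, or 0.0520 after median centring). Over the 32 regions the median difference was -0.07 with 20 regions lower in G74A, or 0.11 with 11 lower in G74A after median centring.

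Of the remaining promoters, Itgb3bp, a kinetochore protein gene (chr4:99495530-99496453), had a normalised pileup of 2.33, 2.15, 2.80, 1.20 and 1.58 in G74A livers, against 7.06, 5.36 and 6.31 in G99 livers (log2 difference -1.69 ± 0.25 SE, limma adjusted p = 9.91e-05). Cdc123, which encodes an assembly factor of the translation factor eIF2 (chr2:5765700-5766660), had a normalised pileup of 4.11, 4.93, 7.67, 2.48 and 3.57 in G74A livers, against 14.9, 11.9 and 13.03 in G99 livers (log2 difference -1.64 ± 0.26 SE, limma adjusted p = 0.000241). Rbl1, the retinoblastoma relative p107 (chr2:157029783-157030858), had a normalised pileup of 2.64, 2.94, 2.63, 2.09 and 1.35 in G74A livers, against 6.17, 6.34 and 8.27 in G99 livers (log2 difference -1.61 ± 0.24 SE, limma adjusted p = 0.000112). The promoter of 4922501C03Rik had a log2 difference of -1.61 ± 0.22 SE (limma adjusted p = 8.9e-05). In all 4 the collections were apart, and the lowest G74A value came from M8 or M9.

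The 6 named distal regions higher in G99 held from 25.0% G+C to 46.0% (Rims2), against a median of 47.5% for all tested regions outside promoters. The region 105031 bp from Olig3 (chr10:19183443-19184579, 38.0% G+C) had a normalised pileup of 1.63, 1.47, 3.03, 1.92 and 1.35 in G74A livers, against 8.95, 8.25 and 4.55 in G99 livers (log2 difference -1.95 ± 0.26 SE, limma adjusted p = 5.61e-05). The region 62781 bp from Atp1b1, a subunit of the sodium pump (chr1:166451267-166452116), had a normalised pileup of 0.931, 0.849, 0.916, 1.03 and 1.44 in G74A livers, against 2.41, 5.96 and 3.36 in G99 livers. A region in an intron of 2310035C23Rik with 25.0% G+C, one 54462 bp from Elmo1, an adaptor of cell engulfment, and introns of Rims2, a vesicle exocytosis protein, and Spink5, a protease inhibitor, had log2 differences between -1.77 and -1.65. None of these 6 overlapped between the collections.

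Presence of a peak gave a smaller set of loci. A peak was found in 5 of 5 G74A livers and in none of the 3 G99 livers at 110 of the 57871 regions (0.19%). In none of the 5 G74A livers and all 3 G99 livers it was found at 389 (0.672%). The first count needs a peak in 5 livers and the second in only 3, so group size enters and the counts cannot be set against each other. Tested with Fisher's exact test over the 10193 regions with a peak in 3 to 5 livers, 0 were called. These 110 and 389 were the regions at an unadjusted p under 0.05, with an exact p of 0.0179, the smallest that 5 against 3 allows (adjusted p = 0.365). With peaks of score 10 or more alone (−log10 of the authors' q-value), the counts were 32 and 415. Median G+C was 56% for the 110 and 41.5% for the 389, against 48.5% for all regions.

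The strongest of the 110 were an intergenic region 45852 bp from Gm8223, a UTR region of Hes7, a transcriptional repressor of the segmentation clock, and the promoters of Trip10, a binding partner of CDC42, Mafg, a small MAF factor that pairs with NRF2, Rab43, a small GTPase of vesicle transport, and Phf23. Hes7 had a normalised pileup of 3.88, 3.23, 3.32, 2.74 and 3.02 in G74A livers (M5 to M9) and no peak in G99 livers. Rab43 had a normalised pileup of 2.56, 2.55, 2.69, 2.18 and 2.78 in G74A livers. Of the STAT5_High livers, Rab43 and Phf23 had a peak in 2 of 2 of G74A and 0 of 3 of G99, Hes7 in 1 and 0, Trip10 in 2 and 1, Gm8223 in 2 and 2, and Mafg in 1 and 2. The strongest of the 389 were introns of Bahcc1, E2f8, a repressor of the cell cycle, Slc19a2, a thiamine transporter, Rxra, the common partner of liver nuclear receptors, and Ppp1r3c, a glycogen-targeting subunit of a phosphatase, with an intergenic region 51269 bp from Dctn6. The Bahcc1 intron (chr11:120096074-120096574) had a normalised pileup of 5.44, 5.14 and 4.24 in G99 livers and no peak in G74A livers. In the STAT5_High livers it had a peak in 0 of 2 of G74A and 3 of 3 of G99. E2f8, Slc19a2 and Ppp1r3c had one in 1 of 2 of G74A and 3 of 3 of G99, Rxra in 1 and 2, and the Dctn6 region, the other way, in 1 and 0.

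The STAT5_High livers of both collections, which took no part in choosing the regions, repeated the difference. Of the 308 regions higher in G74A, 252 had a peak in all 13 livers. The STAT5_High livers of G99 had a peak at 86.7 to 95.1% of the 308, and those of G74A at 99.7% or more. Of the 252, 240 (95.2%) were higher in G74A among STAT5_High livers too, against 49.3% of all 20423 regions. Of the 1531 higher in G99, 1488 had a peak in all 13, and 1412 (94.9%) were also higher in G99 there, against 50.7% of all 20423 regions, on the median-centred scale. The median difference in STAT5_High livers was 0.74 for the G74A set and -0.46 for the G99 set (log2, G74A minus G99), beside 0.99 and -0.73 in STAT5_Low livers. On its own, the comparison of 2 with 3 STAT5_High livers called 254 regions (1.24%) higher in G74A and 373 (1.83%) higher in G99 after centring. Among those were 86 of the 252 and 184 of the 1488, with none in the opposite direction. Over all 20423 regions the difference in the 2 classes correlated with a Pearson r of 0.61 and a Spearman rho of 0.59, or an r of 0.58 after centring by G+C. These are descriptions across regions of the same livers, which share depth and base composition.

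A test of whether the collection difference itself depends on the class called 0 regions by limma (1126 at an unadjusted p under 0.05, or 5.51%, and a smallest adjusted p of 0.221). That does not show that the difference is equal in the classes. Before centring, the median of all regions was shifted in opposite directions, by 0.27 in STAT5_High and -0.15 in STAT5_Low livers (log2, G74A minus G99), and 807 and 87 regions were called in STAT5_High livers. Named regions followed the sets: 10 of 11 higher in G74A and 12 of 12 higher in G99 had the same sign in STAT5_High livers, the exception being the Slc22a15 region, at -0.46 ± 0.27 SE (limma adjusted p = 0.377).

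**Figure D4:**
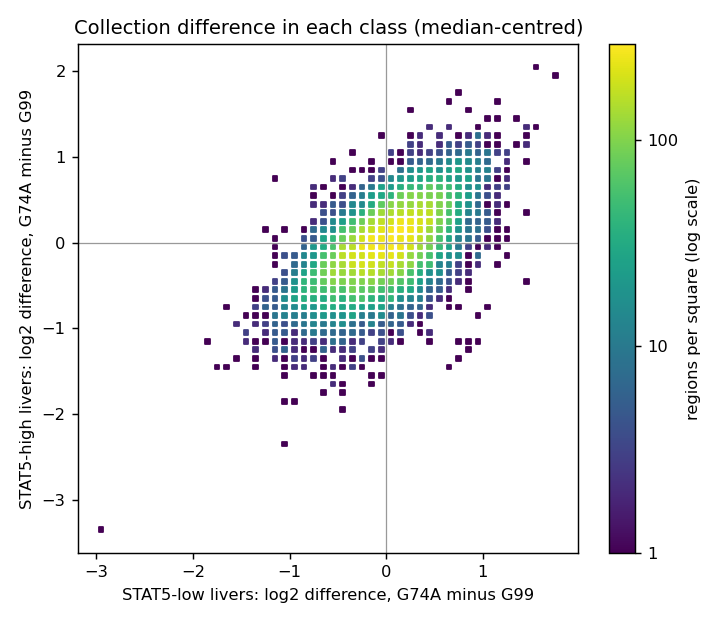
Median-centred log2 difference, G74A minus G99, in the STAT5-low livers (horizontal) and the STAT5-high livers (vertical) for 20423 regions with a peak in all 13 livers; colour gives the number of regions per square on a log scale. The cloud runs along the diagonal (Pearson r 0.61) and the single point at the lower left is the Cwc22 promoter.

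Presence was repeated less sharply. Among STAT5_High livers, the 110 regions held a peak in 68.6% of cases in G74A and 20.9% in G99, against 61.0% and 55.4% for all regions. The 389 held one in 26.3% of cases in G74A and 44.9% in G99. The G92 livers of low STAT5 activity were unlike each other: G92_M4 held a peak at 15.5% of the 110 and 22.1% of the 389, and G92_M6 at 64.5% and 62.5%. By pileup, the G92 livers lay between the collections: over the G74A set their median-centred log2 medians were -0.29 and -0.18, beside 0.22 to 0.50 in G74A livers and -0.67 to -0.63 in G99 livers. Over the G99 set they were -0.10 and 0.05, beside -0.41 to -0.14 in G74A livers and 0.40 to 0.51 in G99 livers. The regions were chosen for the gap between G74A and G99, so livers that took no part can fall between them through the choice alone. The position of G92 between the collections cannot be read from these sets.

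**Figure D5:**
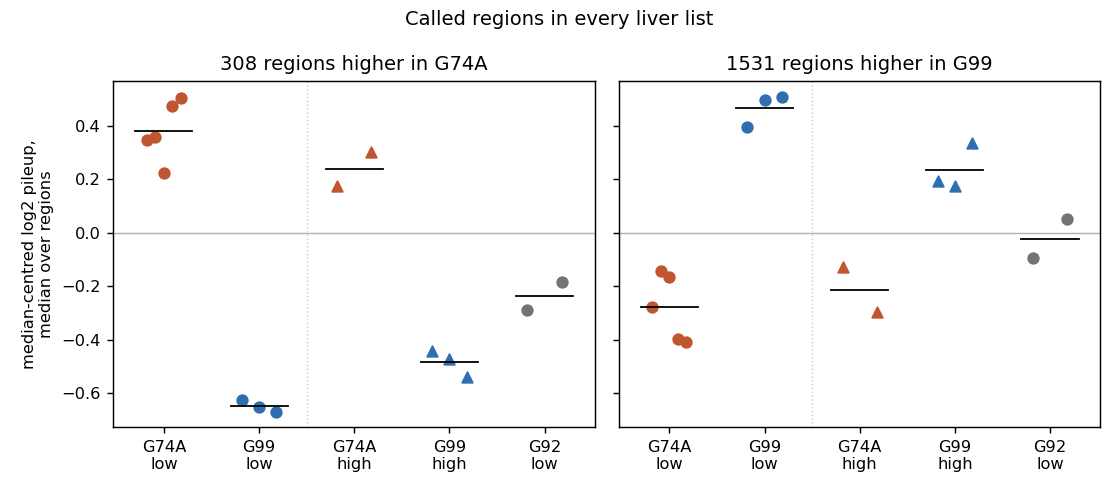
Median-centred log2 pileup, relative to the mean of the 8 STAT5-low livers of G74A and G99, as the median over the 308 regions higher in G74A (left) and the 1531 higher in G99 (right). Each point is a liver, circles for the low and triangles for the high STAT5 class, and lines are group means; the first 2 groups in each panel chose the regions, and the STAT5-high livers, which did not, lie at 0.17 and 0.30 in G74A and -0.54 to -0.44 in G99 on the left.

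Liver functions that change with feeding, hour or stress were read from lists of genes, counting tested regions within 10 kb of each gene. Circadian clock genes had 80 regions, with 2 higher in G74A and 8 higher in G99 (2.50% and 10.0%, beside 1.35% and 6.74% of all tested), or 11 and 8 with median centring alone. A region 808 bp from Clock, the activating subunit of the clock, had a normalised pileup of 2.09, 1.98, 2.46, 1.62 and 2.23 in G74A livers, against 5.39, 5.08 and 5.02 in G99 livers (log2 difference -1.33 ± 0.22 SE, limma adjusted p = 0.000395). An intron of Rora, an activator of clock genes, had a normalised pileup of 4.03, 4.98, 3.83, 2.48 and 3.34 in G74A livers, against 8.63, 6.94 and 7.60 in G99 livers (log2 difference -1.08 ± 0.23 SE, limma adjusted p = 0.00287). The Cry1 promoter and a Per2 intron, of clock repressors, differed by -1.02 ± 0.21 SE (limma adjusted p = 0.00271) and -0.89 ± 0.23 SE (limma adjusted p = 0.0118). Higher in G74A were a region 2000 bp from Bhlhe41, another clock repressor, with a normalised pileup of 3.57, 4.70, 3.32, 4.06 and 2.60 in G74A livers and 2.20, 2.08 and 1.45 in G99 livers, and the promoter of Usp2, a rhythmic deubiquitinase (log2 difference 0.83 ± 0.23 SE, limma adjusted p = 0.019). Other rhythmic genes were not called on both scales: the regions with the smallest p were at log2 differences of -0.41 ± 0.24 SE for Arntl, 0.19 ± 0.24 SE for Nr1d1, 0.32 ± 0.23 SE for Per3 and -0.55 ± 0.25 SE for the region near Dbp (limma adjusted p = 0.298, 0.671, 0.397 and 0.159). With median centring alone the Per3 promoter, the Nr1d2 promoter and a Cry2 intron were called higher in G74A (limma adjusted p = 0.0281, 0.0226 and 0.0229). The Arntl, Nr1d1 and Dbp regions were not. A region 487 bp from Per1 was called higher in G99 only before centring (limma adjusted p = 0.0337, or 0.0538 after it). The median of the list was 0.16 after centring and -0.02 before it, beside 0.04 and -0.13 for all tested regions.

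STAT5 targets and genes of the growth hormone axis had 67 regions, with 0 higher in G74A and 3 higher in G99 (4.48%, beside 6.74% of all tested). The split depended on scale: the list had 5 and 3 with median centring alone, and 3 and 1 after centring by G+C. The 3 were an intron of Prlr, the prolactin receptor, an intron of the neighbouring Agxt2, and the promoter of Bcl6, a repressor that shares binding sites with STAT5 in liver. Bcl6 had a normalised pileup of 9.31, 9.45, 8.81, 3.72 and 4.83 in G74A livers, against 13.5, 10.9 and 11.6 in G99 livers (log2 difference -0.83 ± 0.26 SE, limma adjusted p = 0.0408). The Prlr intron had a normalised pileup of 7.76, 10.4, 9.04, 6.37 and 7.61 in G74A livers, against 19.2, 15.4 and 10.3 in G99 livers, with an overlap and an adjusted p of 0.177 by limma after centring by G+C. The Agxt2 intron was not called after centring by G+C either (limma adjusted p = 0.238), whereas Bcl6 was (limma adjusted p = 0.0231). At Igf1 and at Cish, Socs2 and Socs1, feedback targets that report recent STAT5 signalling, the smallest-p regions were not called on both scales. Their log2 differences were -0.24 ± 0.23 SE at Cish, -0.49 ± 0.24 SE at Socs2, -0.05 ± 0.23 SE at Socs1, and -0.70 ± 0.26 SE at Igf1 (limma adjusted p = 0.567, 0.199, 0.919 and 0.0789). The region 2138 bp from Socs3, another feedback target, lay the other way, with a normalised pileup of 5.12, 6.57, 5.84, 8.38 and 5.20 in G74A livers, against 4.24, 3.55 and 4.40 in G99 livers. Its log2 difference was 0.60 ± 0.22 SE (limma adjusted p = 0.0786), and it was called after median centring (0.77 ± 0.20 SE, limma adjusted p = 0.0156) and after centring by G+C (limma adjusted p = 0.0448). The Pim1 promoter also lay higher in G74A, by 0.55 ± 0.24 SE (limma adjusted p = 0.137), with the collections overlapping. It was called after median centring (0.72 ± 0.14 SE, limma adjusted p = 0.00224) and after centring by G+C (limma adjusted p = 0.0107). Of the sex-biased genes, male-biased ones had 1 region higher in G74A and 2 higher in G99 of 43 (2.33% and 4.65%). These stand beside 1.35% and 6.74% of all tested, and neither of the 2 was called after centring by G+C. The region higher in G74A was an intron of C8b, a complement subunit, with a normalised pileup of 5.74, 3.51, 1.60, 2.35 and 2.92 in G74A livers, against 1.10, 1.53 and 1.50 in G99 livers. Female-biased genes had 0 higher in G74A and 2 higher in G99 (6.90%) of 29, near Atp6v0d2 and in Abcd2. The second of these was not called after centring by G+C (limma adjusted p = 0.248).

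The metabolic lists are read beside 1.35% higher in G74A and 6.74% higher in G99 among all tested regions. Fasting and glucose genes had 2 higher in G74A and 3 higher in G99 of 64 (3.12% and 4.69%), and Sik1, a kinase that restrains gluconeogenesis, held 1 of each. Its promoter had a normalised pileup of 5.66, 5.15, 6.18, 4.70 and 6.13 in G74A livers, against 3.87, 3.61 and 2.59 in G99 livers, while its intron had a normalised pileup of 2.25, 2.60, 3.20, 2.14 and 2.83 in G74A livers, against 6.70, 6.01 and 4.71 in G99 livers. The promoter held 74.5% G+C and the intron region 38.5%. Lipogenesis and sterol genes had 2 higher in G74A, the promoters of Acacb, an acetyl-CoA carboxylase, and Srebf2, the regulator of sterol synthesis, and 1 higher in G99, in Elovl6, of 75 (2.67% and 1.33%). With median centring alone that list had 11 higher in G74A and 1 higher in G99. Bile acid genes had 0 higher in G74A and 4 higher in G99 of 50 (8.0%), of which 3 were also called after centring by G+C, among them the promoter of Abcb11, the bile salt export pump, with a normalised pileup of 4.73, 4.98, 5.67, 2.39 and 3.25 in G74A livers, against 8.06, 8.42 and 6.83 in G99 livers (log2 difference -0.95 ± 0.24 SE, limma adjusted p = 0.0118). PPAR alpha targets (47 regions) and xenobiotic response genes (58) had 0 in either direction.

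The stress, inflammation and cell type lists are read beside 1.35% higher in G74A and 6.74% higher in G99 among all tested regions. Glucocorticoid response genes had 2 higher in G74A (Mt1 and Mt2, above) and 2 higher in G99 of 43 (4.65% each way). Of the 2 higher in G99, 1 was called after centring by G+C. An intron of Fkbp5, a chaperone partner of the glucocorticoid receptor, had a normalised pileup of 4.89, 4.30, 5.44, 2.27 and 2.88 in G74A livers, against 10.4, 7.0 and 8.89 in G99 livers (log2 difference -1.20 ± 0.25 SE, limma adjusted p = 0.00251). Immediate early and stress genes had 0 higher in G74A and 3 higher in G99 (5.66%) of 53, or 7 and 3 with median centring alone. The 3 higher in G99 were regions near Fosb and Hspa1b, neither called after centring by G+C (limma adjusted p = 0.172 and 0.0597), and the promoter of Lsm2, which neighbours Hspa1a and was called (limma adjusted p = 0.00776). Acute phase genes had Lcn2 higher in G74A and Lbp higher in G99 of 54 (1.85% each way), or 7 and 1 with median centring alone. Interferon response genes had 0 and 1 of 17 (5.88% higher in G99). Hepatocyte genes had 0 and 4 of 92 (4.35% higher in G99). The 4 were regions near Cps1 and Foxa1 and the promoters of Gas2l3, which neighbours Nr1h4, and Irf2bp1, which neighbours Foxa3. Cell cycle genes had 2 (the promoters of Mki67 and Ccnb1) and 1 (Cdk1) of 18 (11.1% and 5.56%). For other cell types, endothelial markers had 1 higher in G74A (Kdr) and 2 higher in G99 (Stab2 and Lyve1) of 20 regions (5.0% and 10.0%). The 2 were not called after centring by G+C (limma adjusted p = 0.122 and 0.216). Macrophage (3 regions), stellate cell (3), cholangiocyte (4), lymphocyte (4), erythroid (7) and neutrophil markers (3) had 0 in either direction. Few of their genes had a tested region: 1 macrophage, 2 stellate cell, 2 cholangiocyte, 3 lymphocyte, 4 erythroid and 2 neutrophil genes. Some of the regions were promoters of neighbouring genes, among them Mpdu1 and Eif4a1 near Cd68, Arhgef1 near Cd79a and Etfb near Nkg7. These zeros do not show that the cell types are equal between the collections.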

How the data were processed

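DNase-seq peaks had been called liver by liver with MACS2 2.1.0.20150731 from uniquely mapped reads without a control (fixed extension of 200 bp, q-value limit 0.05), per the file headers, after alignment to mm9, per the submitters' processing notes, which also name Bowtie2. Each deposited list gives the pileup signal at the summit, the fold enrichment over local background, and −log10 of the q-value as a score. The tag totals in the headers are the depth of each list.

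Peaks on the mitochondrial genome (7 per list) were left out. The 8 lists were merged at 1 bp or more, and the tallest peak of a liver in a region gave its value. Log2 pileup per 1000000 header tags was compared with limma 3.58.1 (mean-variance trend, R 4.3.3) over regions with a peak in all 8 livers, also median-centred, with Benjamini-Hochberg adjustment at 0.05. Restriction to such regions leaves out those a collection lacks, which are described by presence. The fit was tested on simulated data. Single values were compared by exact permutation of livers.

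Regions were annotated with GENCODE vM1 protein-coding genes on mm9 and named by the overlapped or nearest gene. Named regions were the 12 per direction with the largest centred difference among calls on both scales, the 6 per direction with the highest pileup among presence differences, and for each of 22 gene lists (369 of 373 symbols matched) up to 4 called regions. Genes discussed outside this rule (Eif2s3y, Uty, Ddx3y, Socs3, Pim1, and Lcn2 beside Mt1 and Mt2) were chosen after their values were seen, as was the count of GC boxes and of starts on both strands. Members, lists and tests were chosen with earlier results of these data known.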

Additional observations from a re-analysis of the deposited data

Results flagged for a closer look

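Within the 5 G74A livers, 30 sets of values (6 summary measures of the lists and the log2 pileup of the 24 named regions) were checked for a liver standing apart by Dixon's ratio, the gap to the nearest liver over the whole range, with a critical value of 0.71 for 5 livers. Chance alone gives about 1 in 20 sets. At the 2310035C23Rik intron G74A_M8 was lowest, at a log2 normalised pileup of -0.38 beside 0.72 in the next liver, with a ratio of 0.712. At the Spink5 intron G74A_M7 was highest, at 0.96 beside 0.41 in the next, with a ratio of 0.743. The 3 G99 livers were too few for this check. Neither liver alone carried its region's call: both regions were still called by limma without it.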

How the results depend on the processing

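No paired analysis was possible because no replicate number is shared between the G74A and G99 livers of low STAT5 activity. The count of regions higher in G74A depended on scaling: 308 without centring became 1642 with median centring, 1530 with quantile normalization, and 1039 with G+C centring, which was added after the data were seen. It was 98 with the authors' fold enrichment in place of pileup. With other regions tested it was 205 of 13283 with peaks of score 10 or more, and 1050 of 20423 with all 13 livers and class as a covariate. The count higher in G99, 1826, became 1136 with all 13 livers and stayed within 1.5 times under the other settings with all 8 livers. The share of calls higher in G74A was 14.4% without centring, 50.4% with median centring and 40.0% with G+C centring. Leaving out each liver gave 66 to 361 regions higher in G74A and 608 to 2376 higher in G99. The 110 regions present only in G74A became 170 with equal numbers of top peaks, 32 with score 10 or more, and 127 to 314 without 1 liver. The 389 present only in G99 became 292, 415 and 443 to 993 under the same settings. Without 1 liver, a region needs fewer livers to qualify. The within-minus-across overlap was 0.0337 with score 10 or more (exact permutation p = 0.0536), and 0.0154 to 0.0310 without 1 liver. In STAT5_High livers, 807 regions higher in G74A became 254 with median centring, 46 with G+C centring and 84 to 2394 without 1 liver, and 87 higher in G99 became 373, 136 and 13 to 242. The cause of these shifts was not tested. Of the 24 named regions, 20 kept direction and call under all 12 alternatives, and none changed direction. Peaks missing from a list may lie just under the caller's limit, and depth differed from 12890880 to 23395665 tags.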

Other observations

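Chromosomes are read beside 1.35% higher in G74A and 6.74% higher in G99 among all tested regions. The X chromosome had 1 of 426 tested regions (0.235%) higher in G74A and 41 (9.62%) higher in G99. Its median centred difference was -0.09 (log2, G74A minus G99) and its median G+C was 55.5%. Chromosome 11 had 25 of 1655 (1.51%) higher in G74A and 68 (4.11%) higher in G99, with a median centred difference of 0.14 and a median G+C of 55.0%. Chromosome 13 had 12 of 1055 (1.14%) higher in G74A and 95 (9.0%) higher in G99, with a median G+C of 49.5%. The labels do not link these chromosomes to the collections, and no test of a chromosome was made.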
